A study of Mus musculus with 8 samples.

Results

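The members described here are 45 genes of the p53 response and of programmed cell death, among 43472 gene symbols listed for each library. The set was defined by gene symbol, with earlier results of these data known. All 45 symbols were found. They comprise 16 genes of p53 and its cell cycle and repair targets, 9 genes of the BCL2 family, 13 genes of the caspases and the apoptosome with its inhibitors, 4 genes of the death receptor complex and 3 genes of necroptosis. RNA of neural retinas, the retina without the pigment epithelium, was sequenced from the 3′ end of transcripts in C57BL/6J mice at the age of 3 weeks (postnatal day 21). The control group included 3 Mfp2+/+ mice and 1 Mfp2+/- mouse (control replicate 2), and the Mfp2-/- group 4 mice that lack multifunctional protein 2 (MFP2), an enzyme of peroxisomal β-oxidation encoded by Hsd17b4, in every cell of the body. Each library holds both retinas of 1 mouse, so n = 4 per group counts mice.

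The tumor suppressor p53 is a transcription factor that is held at a low level by the ubiquitin ligase MDM2 and its partner MDM4. When the DNA is damaged or the cell is under stress, p53 switches on genes that halt the cell cycle, repair the damage or start apoptosis. In the mitochondrial pathway of apoptosis, BH3-only proteins such as PUMA (Bbc3) and BID release the pore formers BAX and BAK from anti-apoptotic BCL2 proteins, cytochrome c then assembles with APAF1 and caspase 9 into the apoptosome, and executioner caspases follow unless XIAP holds them back. Death receptors such as FAS instead recruit FADD and caspase 8, and where caspase 8 is not active, RIPK1, RIPK3 and MLKL can rupture the cell by necroptosis. Apoptosis and necroptosis have both been described in degenerating photoreceptors.

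Counts assigned to genes ranged from 2340974 to 3226187 in the controls and from 1895485 to 2826553 in the Mfp2-/- libraries. Hsd17b4 was counted 182 times over the 4 controls and 2 times over the 4 Mfp2-/- libraries, as the labels give. The summed level of 15 rod transcripts was 50444 to 61247 CPM (counts scaled to library size) in the controls, which fits the labelled tissue, and 1931 to 2762 CPM in the Mfp2-/- libraries. Pigment epithelium transcripts, which a neural retina should lack, summed to 198 to 429 CPM in control and 295 to 542 CPM in Mfp2-/- libraries. Of the 6 that were tested, 0 were called, against 27% of all tested genes. The sum of 15 microglia and macrophage transcripts was 63.9 to 88.8 CPM in control and 335 to 457 CPM in Mfp2-/- retinas. All 12 that were tested were called upregulated, against 13.8% of all tested genes. Scarce ones such as Lyz2, at 0.323 to 2.18 CPM in control, passed the filter on low counts only through the Mfp2-/- group. The other 3 were not tested. In such bulk samples, fewer cells of a type and less RNA per cell cannot be told apart. Mfp2-/- libraries 2 and 3 stood apart from the others. Of their reads, 10.8% and 15.7% mapped outside genes against 22.6 to 29.9% in the other 6, 22.1% and 19.4% did not align against 15.3 to 18.1%, and 26.2% and 23.8% did not align uniquely against 19.9 to 21.3%. The share of ambiguous reads was 0.322% and 0.340% against 0.262 to 0.290%, and the summed level of 8 lens transcripts was 5791 and 3368 CPM against 304 to 1882 CPM.

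Of the 45 members, 35 passed the filter on low counts and were tested as part of 12516 genes in all, with edgeR's quasi-likelihood test and Benjamini-Hochberg adjustment over all of them. At an adjusted p under 0.05, 9 members were upregulated (25.7% of those tested), against a background of 13.8% of all tested genes, and 3 were downregulated (8.57%), against 13.2%. In either direction, 27% of all genes passed. All 4 Mfp2-/- retinas lay above all 4 controls for 9 members and below them for 5, where 15.1% and 15.8% of all genes did so, and the groups overlapped for the other 21. The median log2 fold change was 0.085 over the 35 members and -0.0039 over all tested genes. Genes that are scarce in control retinas pass the filter only where they are high in Mfp2-/- retinas, as Bid, Phlda3 and Gadd45b did, so these counts describe the tested members and not all 45.

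**Figure D1:**
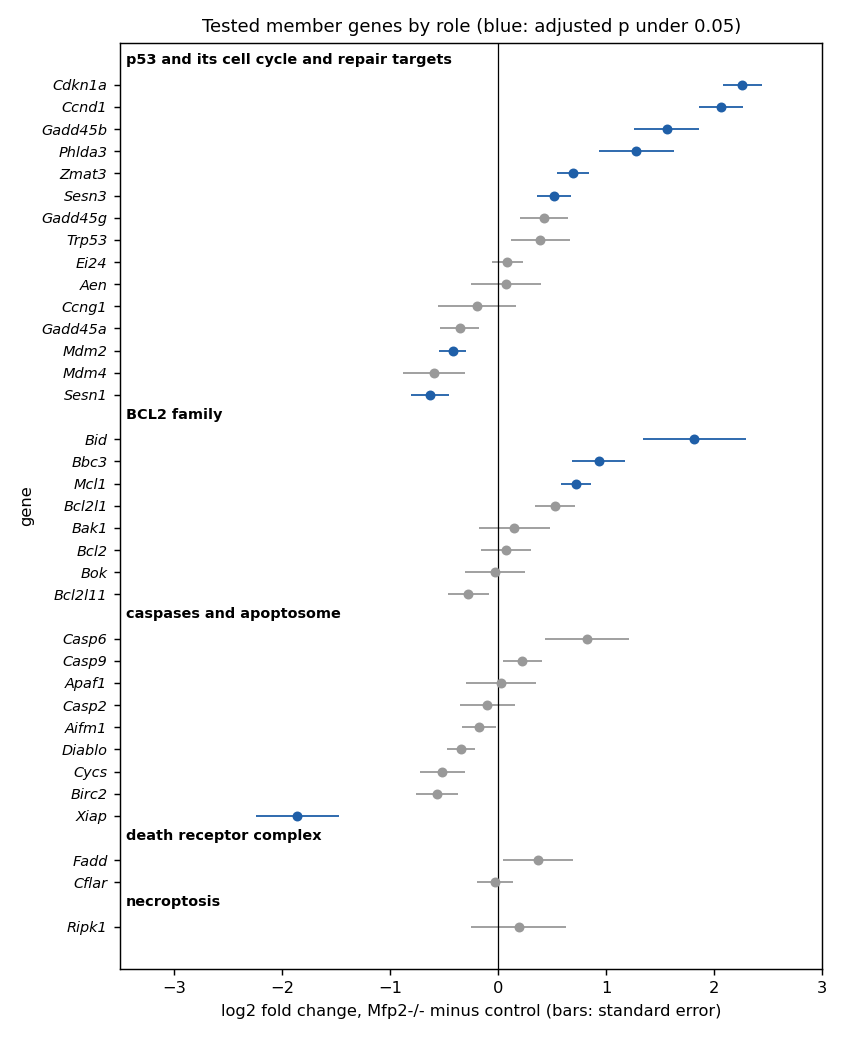
Log2 fold change of each of the 35 tested member genes, Mfp2-/- minus control (horizontal axis), with its standard error as a bar, grouped by role. Blue marks the 12 genes with an adjusted p under 0.05: upregulated genes lie in the p53 and BCL2 groups, whereas Xiap, at -1.86, is the lowest of all.

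The 2 largest increases of all tested members were those of Cdkn1a and Ccnd1 in the p53 list. Of the 15 tested genes of this list, 6 were upregulated (40%) and 2 downregulated (13.3%), against 13.8% and 13.2% of all tested genes. The 6 include Ccnd1, Gadd45b and Sesn3, which are not among the established p53 targets named below. The 40% is thus a share of this list and not of established p53 targets. The other 7 did not pass, and the median log2 fold change was 0.39. The gene that encodes p53, Trp53, was measured at 5.46, 4.52, 8.06 and 7.32 CPM in control replicates 1 to 4 and at 9.91, 7.62, 9.75 and 6.25 CPM in Mfp2-/- replicates 1 to 4. The groups overlapped and the log2 fold change of 0.39 ± 0.28 (standard error, SE) did not pass (adjusted p = 0.318).

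Cdkn1a (chromosome 17, 29090976 to 29100727, plus strand of GRCm38) encodes p21, the cyclin-dependent kinase inhibitor through which p53 arrests the cell cycle. Its level was 22.9, 16.7, 20.0 and 21.6 CPM in the 4 controls and 86.0, 111, 118 and 76.5 CPM in the 4 Mfp2-/- retinas. The lowest Mfp2-/- value was far above the highest control. This 4.79-fold increase, a log2 fold change of 2.26 ± 0.18 (SE, adjusted p = 6.5e-06), was the largest among the 35 tested members. In Mfp2-/- replicate 4, a single mouse, the lens transcripts were at 322 CPM, within the control range, and Cdkn1a was at 76.5 CPM. The part of lens RNA in the level of Cdkn1a was not tested. Without Mfp2-/- libraries 2 and 3 the log2 fold change of Cdkn1a was 1.99 (adjusted p = 4.5e-07).

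The promoter of Cdkn1a is shown because p53 acts on this gene through decamers, the 10-base units that lie in pairs in a p53 response element. RefSeq (GRCm38.p6) gives Cdkn1a more than 1 start site. The window from 250 bases before to 50 bases after the upstream one, chr17:29090729-29091028 on the plus strand, reads as follows, with matches to the p53 decamer in capitals.
Cdkn1a: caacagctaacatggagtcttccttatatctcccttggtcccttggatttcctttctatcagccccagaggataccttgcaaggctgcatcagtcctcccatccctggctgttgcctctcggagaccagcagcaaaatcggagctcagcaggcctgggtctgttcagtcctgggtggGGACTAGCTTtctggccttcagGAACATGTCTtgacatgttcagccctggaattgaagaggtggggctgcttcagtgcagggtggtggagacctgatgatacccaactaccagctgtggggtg
The 2 matches start 73 and 51 bases before the start site. At least 2 matches were found in 0.359% of the 32851 promoter windows of all genes.

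Windows of this length were given for 41 of the 45 members (not for Ccnd1, Zmat3, Perp and Tnfrsf10b). A decamer, which reads the same pattern on both strands, was found for 10 of the 41 genes (24.4%), against 9.55% of 27025 genes overall. By call, it was present in 1 of 7 upregulated members, in 2 of 3 downregulated members, in 6 of 23 that did not pass and in 1 of 8 that were not tested. Stretches of 60 bases around the match are given for Trp53, for the 2 downregulated p53 targets and for Bax, whose transcript was scarce, so that the members whose promoters carry the letters can be set beside their levels.
Trp53, chr11:69580259-69580318, plus strand: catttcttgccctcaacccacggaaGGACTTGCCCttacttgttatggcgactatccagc
Mdm2, chr10:117710910-117710969, minus strand: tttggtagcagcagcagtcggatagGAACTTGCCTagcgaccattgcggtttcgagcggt
Sesn1, chr10:41887241-41887300, plus strand: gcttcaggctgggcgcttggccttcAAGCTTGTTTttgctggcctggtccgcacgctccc
Bax, chr7:45467065-45467124, minus strand: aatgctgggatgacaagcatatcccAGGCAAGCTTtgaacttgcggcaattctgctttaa
The capitals again mark the decamer. A match is a description of these letters only, and p53 binding was not measured.

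Ccnd1 (chromosome 7, 144929931 to 144939925, minus strand), which encodes cyclin D1, the partner of CDK4 and CDK6 at the entry into the cell cycle, was at 20.7, 24.0, 26.8 and 17.8 CPM in control and at 74.3, 126, 96.1 and 77.6 CPM in Mfp2-/- retinas. The groups were far apart, with a log2 fold change of 2.06 ± 0.20 (SE, adjusted p = 3.9e-05). Retinal Müller glia also express cyclin D1, and the summed level of 10 Müller glia transcripts was 3823 to 4416 CPM in control and 4906 to 6537 CPM in Mfp2-/- retinas. The 10 transcripts were mixed: 7 were upregulated, whereas Glul, Rlbp1 and Aqp4 were not called. Glul had a lower mean in Mfp2-/- retinas (1604 CPM) than in control (2300 CPM). The part of Müller glia in the increase of Ccnd1 was not tested.

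Gadd45b, a stress sensor of the GADD45 family, was at 4.37, 2.26, 4.84 and 5.23 CPM in control and at 9.20, 11.2, 14.1 and 15.8 CPM in Mfp2-/- retinas, a log2 fold change of 1.56 ± 0.30 (SE, adjusted p = 0.0034). Its relatives did not follow. Gadd45a was at 25.5, 21.7, 21.3 and 26.5 CPM in control and at 13.8, 19.8, 20.5 and 20.2 CPM in Mfp2-/- retinas, so that all Mfp2-/- values lay below all controls, but the log2 fold change of -0.36 ± 0.18 (SE) did not pass (adjusted p = 0.165). Its exons overlap those of E230016M11Rik on the other strand, and reads of both could not be told apart because the use of strand in counting is not given. Gadd45g, with overlapping groups, had a log2 fold change of 0.42 (adjusted p = 0.186).

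Phlda3, whose product restrains AKT at the membrane, was at 2.18, 4.52, 4.19 and 2.09 CPM in control and at 6.02, 9.65, 9.75 and 6.25 CPM in Mfp2-/- retinas. All Mfp2-/- values exceeded all controls, with a log2 fold change of 1.28 ± 0.35 (SE, adjusted p = 0.020). The call was lost without control replicate 1 (adjusted p = 0.059), control replicate 4 (0.063), Mfp2-/- replicate 3 (0.066) or both Mfp2-/- libraries with high lens transcripts (0.143). In Mfp2-/- replicate 4, a single mouse with lens transcripts at the control level, Phlda3 was at 6.25 CPM, above all controls. The part of lens RNA in the level of Phlda3 was not tested.

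Zmat3, an RNA-binding target of p53, was at 35.3, 30.8, 33.9 and 24.4 CPM in control and at 48.1, 50.8, 47.4 and 54.4 CPM in Mfp2-/- retinas. The groups were separate by more than the spread within either, with a log2 fold change of 0.69 ± 0.15 (SE, adjusted p = 0.0060).

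Sestrins restrain mTORC1 and protect from oxidative stress, and both sestrin genes among the members passed the test, in opposite directions. Sesn3 was at 34.6, 28.0, 27.1 and 25.4 CPM in control and at 48.5, 36.1, 42.7 and 37.5 CPM in Mfp2-/- animals (log2 fold change 0.52 ± 0.16 SE, adjusted p = 0.031). Sesn1 was at 41.1, 49.8, 41.6 and 42.1 CPM in control and at 28.0, 27.4, 36.3 and 20.6 CPM in Mfp2-/- animals (log2 fold change -0.63 ± 0.18 SE, adjusted p = 0.023). Neither gene had overlapping groups. Both calls depended on single libraries, since Sesn3 did not pass without control replicate 2 (adjusted p = 0.0840), 3 (0.0794) or 4 (0.0846) or when Mfp2-/- replicate 1 (0.0674) or 3 (0.0796) was left out, and Sesn1 did not pass without control replicate 2 (0.0698), 3 (0.0506) or 4 (0.0545) or when Mfp2-/- replicate 1 (0.0566) or 4 (0.0526) was left out. Sesn1 kept its call without Mfp2-/- libraries 2 and 3 together (adjusted p = 0.0043). It did not pass when scaled by upper-quartile factors (adjusted p = 0.0600) or by total counts only (0.0533).

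Both negative regulators of p53 had lower means in Mfp2-/- retinas, of which Mdm2 passed the test. Mdm2, itself induced by p53, was at 83.3, 88.7, 86.8 and 91.6 CPM in control and at 70.8, 58.4, 58.8 and 73.5 CPM in Mfp2-/- retinas. The highest Mfp2-/- value was below the lowest control, and the log2 fold change was -0.42 ± 0.13 (SE, adjusted p = 0.031). This call was lost without control replicate 2 (adjusted p = 0.0713), 3 (0.0673) or 4 (0.0788), without Mfp2-/- replicate 3 (0.0940) and without Mfp2-/- libraries 2 and 3 together (0.116), and when scaled by upper-quartile factors (0.089) or by total counts only (0.104). Mdm4 was at 76.4, 102, 79.0 and 88.5 CPM in control and at 72.2, 24.4, 50.8 and 79.4 CPM in Mfp2-/- retinas, with overlapping groups and a log2 fold change of -0.60 (adjusted p = 0.148). Its low values were those of Mfp2-/- libraries 2 and 3, and without both the log2 fold change was -0.19 (adjusted p = 0.371).

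Ccng1, a cyclin that is a p53 target, was at 66.2, 48.4, 45.2 and 46.3 CPM in control and at 66.5, 13.2, 41.0 and 57.4 CPM in Mfp2-/- retinas. It did not pass (log2 fold change -0.19, adjusted p = 0.720), and its direction was set by Mfp2-/- replicate 2, without which the log2 fold change was 0.091. The remaining tested p53 targets, Ei24 (log2 fold change 0.085, adjusted p = 0.693) and the exonuclease Aen (0.070, adjusted p = 0.895), had overlapping groups. Established p53 targets of this list were thus called in both directions, with Cdkn1a, Phlda3 and Zmat3 up and Mdm2 and Sesn1 down. The calls of Phlda3, Mdm2 and Sesn1 were lost when some single libraries were left out. Those of Mdm2 and Sesn1 were also lost with upper-quartile factors or total counts only. Gadd45a, Ccng1, Ei24 and Aen had no call. Of the p53 targets in the other lists below, Bbc3 was upregulated, and Bax, Fas and Tnfrsf10b were too scarce for the test.

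**Figure D2:**
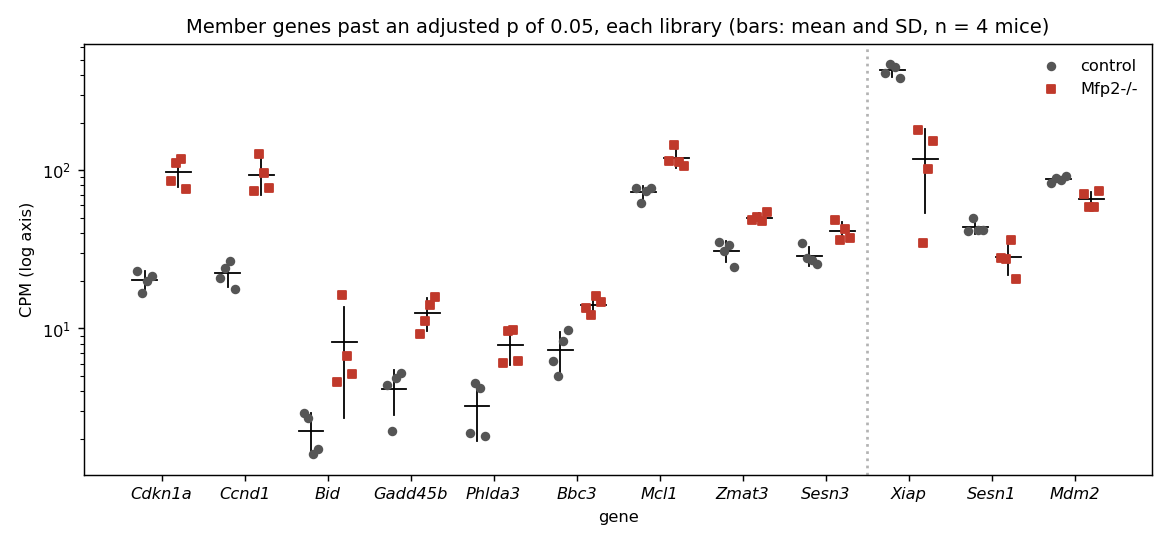
Level of the 12 member genes with an adjusted p under 0.05 in each library, in CPM on a log axis. Points are mice, bars the mean and SD of 4 mice, genes left of the dotted line were upregulated in Mfp2-/- retinas and those right of it downregulated. Cdkn1a and Ccnd1 show the widest gaps upward and Xiap the widest gap downward, with Mfp2-/- replicate 2 the lowest point at 34.6 CPM.

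In the BCL2 family, 3 of the 8 tested genes were upregulated (37.5%) and 0 were downregulated, against 13.8% and 13.2% of all tested genes. The other 5 did not pass, and the median log2 fold change was 0.34. DESeq2 and limma-voom likewise called 0 of the 8 genes downward, and at an unadjusted p under 0.05 edgeR gave 0. So short a list cannot set a count of 0 apart from the share of 13.2%. The upregulated genes were on both sides of apoptosis: Bbc3 and Bid promote it and Mcl1 prevents it.

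Bbc3, which encodes the p53-induced BH3-only protein PUMA, was at 6.19, 4.98, 8.39 and 9.75 CPM in control and at 13.4, 12.2, 16.1 and 14.7 CPM in Mfp2-/- retinas. All 4 Mfp2-/- values were higher than any control, with a log2 fold change of 0.93 ± 0.25 (SE, adjusted p = 0.018). The adjusted p was 0.050 without control replicate 1 and 0.0552 without Mfp2-/- replicate 3, both just above 0.05. Without Mfp2-/- libraries 2 and 3 together it passed (0.040).

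Bid (chromosome 6, 120891930 to 120916853, minus strand) encodes the BH3-only protein that caspase 8 cleaves. Its level was 2.91, 2.71, 1.61 and 1.74 CPM in control and 4.60, 16.3, 6.72 and 5.15 CPM in Mfp2-/- retinas. The groups did not overlap, and the value of Mfp2-/- replicate 2 was far above the other 3. The log2 fold change was 1.82 ± 0.48 (SE, adjusted p = 0.017), 1.30 without Mfp2-/- replicate 2 (adjusted p = 0.024) and 1.12 without Mfp2-/- libraries 2 and 3 together (0.093). Nor did it pass when control replicate 3 (0.0532) or 4 (0.0539) was left out. Bid shares 628 exon bases with Bcl2l13 on the other strand, which had 1103 counts over all libraries against 103 of Bid, and reads of both could not be told apart. Bcl2l13 itself had a log2 fold change of -0.31 (adjusted p = 0.168).

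Mcl1, an anti-apoptotic member with a short-lived protein, was at 77.5, 62.0, 73.5 and 77.0 CPM in control and at 115, 145, 113 and 106 CPM in Mfp2-/- retinas. Every Mfp2-/- retina was above every control, a log2 fold change of 0.72 ± 0.14 (SE, adjusted p = 0.0038). Bcl2l1, which encodes BCL-XL, was at 48.0, 29.4, 34.8 and 42.1 CPM in control and at 46.0, 60.5, 67.9 and 48.9 CPM in Mfp2-/- retinas. Control replicate 1 lay within the Mfp2-/- range, and the log2 fold change of 0.53 ± 0.19 (SE) did not pass (adjusted p = 0.058). It passed without control replicate 1 (0.043) or Mfp2-/- replicate 1 (0.039). Its 2 highest values were those of Mfp2-/- libraries 2 and 3, and without both the log2 fold change was 0.29 (adjusted p = 0.294). The founding member Bcl2 had a log2 fold change of 0.070 (adjusted p = 0.848), the BH3-only gene Bcl2l11 (BIM) one of -0.28 (adjusted p = 0.299), and the pore-forming relatives Bak1 (0.15, adjusted p = 0.763) and Bok (-0.030, adjusted p = 0.947) likewise had overlapping groups. Exons of Bak1 overlap those of Ggnbp1 on the other strand.

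Bax, the pore former that p53 induces, had too few counts for the test: 9, 5, 11 and 12 counts in control and 8, 4, 21 and 9 counts in Mfp2-/- retinas. Scaled to depth, the summed counts were in a ratio of 1.18 (95% exact interval 0.742 to 1.89). This interval and those of the other scarce members below leave out variation between mice. The log2 ratio of Bax to Bcl2 was -2.76 ± 0.48 in control and -2.71 ± 0.56 in Mfp2-/- retinas (SD, n = 4), a difference of 0.050 (2-sided exact permutation test, p = 0.886, adjusted over 4 ratios 0.886). That of Bax to Bcl2l1 was -3.47 ± 0.26 in control and -3.93 ± 0.62 in Mfp2-/- retinas (exact permutation p = 0.229, adjusted 0.305). The log2 ratio of Mdm2 to Trp53 was 3.78 ± 0.36 in control and 2.95 ± 0.40 in Mfp2-/- retinas (exact permutation p = 0.057, adjusted 0.114). With 4 against 4 mice the smallest p this test can give is 0.029.

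Among caspases and the apoptosome, 0 of the 9 tested genes were upregulated and 1 was downregulated (11.1%), against 13.8% and 13.2% of all tested genes. The other 8 did not pass, and the median log2 fold change was -0.18. DESeq2 and limma-voom also called 0 of the 9 genes upward, and at an unadjusted p under 0.05 in edgeR there were 0. With 9 genes, a count of 0 cannot be set apart from the share of 13.8%. The downregulated gene was Xiap (chromosome X, 42059679 to 42109656, plus strand), whose product inhibits caspases. Xiap was at 412, 471, 450 and 380 CPM in control and at 180.5, 34.6, 102 and 154 CPM in Mfp2-/- retinas. All Mfp2-/- values were less than the lowest control, but they differed widely among themselves. The fall was 3.63-fold, with a log2 fold change of -1.86 ± 0.38 (SE, adjusted p = 0.0050).

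The lowest Xiap levels were those of Mfp2-/- libraries 2 and 3, in which 10.8% and 15.7% of the reads lay outside genes, against 27.5% and 28.0% in Mfp2-/- libraries 1 and 4. Without both, the log2 fold change of Xiap was -1.36 ± 0.15 (SE, adjusted p = 7.7e-06), so the call did not rest on them. Birc2, which encodes the relative cIAP1, showed the same order of libraries. It was at 64.8, 56.1, 51.6 and 51.9 CPM in control and at 48.1, 24.4, 35.3 and 42.3 CPM in Mfp2-/- retinas. The groups were separate, but with a log2 fold change of -0.57 ± 0.19 (SE) Birc2 narrowly did not pass (adjusted p = 0.051). It passed without Mfp2-/- replicate 1 (0.024), and without libraries 2 and 3 together it had a log2 fold change of -0.31 (adjusted p = 0.164). The part of the share of reads outside genes in Mdm4, Birc2 and Ccng1 was not tested.

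**Figure D3:**
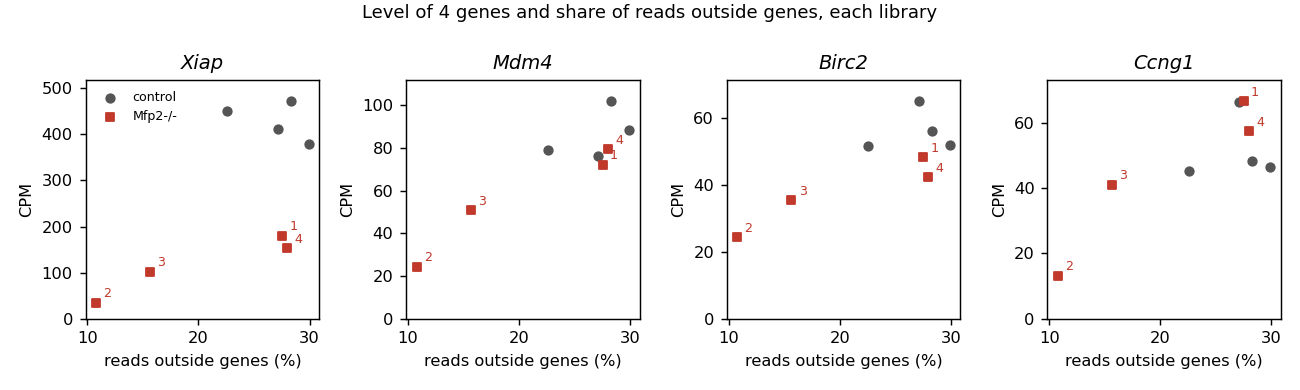
Level of Xiap, Mdm4, Birc2 and Ccng1 in CPM (vertical axes, from 0) against the share of reads outside genes in percent (horizontal axes), each point a library and Mfp2-/- libraries numbered by replicate. For all 4 genes Mfp2-/- libraries 2 and 3, at 10.8% and 15.7%, are the lowest of the 8, whereas libraries 1 and 4 lie among or near the controls except for Xiap.

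The mitochondrial factors released in apoptosis had lower means in Mfp2-/- retinas without passing. Diablo, which encodes the XIAP antagonist SMAC, had a log2 fold change of -0.34 (adjusted p = 0.075), cytochrome c (Cycs) one of -0.52 (adjusted p = 0.088) and Aifm1, which encodes apoptosis-inducing factor, one of -0.18 (adjusted p = 0.415). Cytochrome c also carries electrons in the respiratory chain. The initiator caspase 9 (Casp9, 0.22, adjusted p = 0.389), its platform Apaf1 (0.028, adjusted p = 0.958) and Casp2 (-0.099, adjusted p = 0.803) had overlapping groups. Casp6, which encodes an executioner caspase, was at 3.64, 4.07, 1.29 and 2.79 CPM in control and at 3.54, 6.61, 4.37 and 6.25 CPM in Mfp2-/- animals (log2 fold change 0.82, adjusted p = 0.140).

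The other genes of this group had few counts. Casp1, the inflammatory caspase that matures interleukin 1β, was counted 1, 0, 0 and 0 times in control and 10, 3, 3 and 7 times in Mfp2-/- retinas. Its summed counts gave a ratio of 24.0 with a 95% exact interval of 3.89 to 987, which covers counting error only. Casp8, the initiator at death receptors, had 1, 4, 6 and 4 counts in control and 12, 5, 8 and 12 in Mfp2-/- retinas (ratio 2.57, interval 1.38 to 5.04). After scaling to library size its Mfp2-/- values, from 2.54 to 4.41 CPM, lay above all controls, from 0.364 to 1.94 CPM. For Casp12, a caspase of the endoplasmic reticulum, there were 2, 0, 3 and 2 counts in control and 10, 2, 7 and 9 in Mfp2-/- retinas (ratio 4.17, interval 1.78 to 11.3). Without the filter on low counts, where 7.69% of 22095 genes were called upward and 8.12% downward, Casp1 passed edgeR's test (adjusted p = 0.0080) but Casp8 (0.116) and Casp12 (0.062) did not. Casp1 and Casp8 are expressed by microglia, and the transcripts of these cells had risen in all 4 Mfp2-/- libraries. Their part in these counts was not tested. Birc3, which encodes cIAP2, was counted 3 times over all controls and 7 times over all Mfp2-/- libraries.

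In the death receptor complex, Fadd, the adaptor of the receptors, had a log2 fold change of 0.36 (adjusted p = 0.427) and Cflar, the inhibitor of caspase 8, one of -0.033 (adjusted p = 0.903), with a median of 0.17. Of these 2 genes edgeR, DESeq2 and limma-voom called 0, and 0 had an unadjusted p under 0.05 in edgeR. As edgeR called 27% of all tested genes, 2 genes are too few to set a count of 0 apart from that share. The receptor Tnfrsf10b, which encodes the mouse TRAIL receptor and is a target of p53, had 4, 1, 2 and 2 counts in control and 14, 17, 9 and 13 counts in Mfp2-/- retinas. Each Mfp2-/- library had more than any control. The ratio was 6.14 with a 95% exact interval of 3.00 to 14.2, and without the filter it passed edgeR's test (adjusted p = 0.0025). Fas, also a p53 target, had 1, 2, 5 and 0 counts in control and 14, 2, 6 and 5 in Mfp2-/- retinas (ratio 3.52, interval 1.55 to 8.96, adjusted p without the filter 0.142), with overlapping groups. The log2 ratio of Casp8 to Cflar was -5.19 ± 0.91 in control and -3.77 ± 0.34 in Mfp2-/- retinas (SD, n = 4). The groups did not overlap, and the 2-sided exact permutation p of 0.029 was the smallest possible, with an adjusted value of 0.114 over 4 ratios.

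Necroptosis genes were close to the limit of detection. Ripk3, the kinase that phosphorylates MLKL, was counted 1 time in control replicate 1 and 1 time in Mfp2-/- replicate 1 and was at 0 in the other 6 libraries. Mlkl, which encodes the executioner, was counted 2 times in control and 4 times in Mfp2-/- retinas. A count of 0 allows up to 3 counts, or 0.968 to 1.52 CPM depending on the library, so a difference of either gene was not detectable at this depth. Ripk1, which acts upstream in both cell survival and death, was at 4.37, 4.52, 2.58 and 6.62 CPM in control and at 8.85, 2.03, 3.70 and 5.52 CPM in Mfp2-/- animals (log2 fold change 0.19 ± 0.44 SE, adjusted p = 0.779). Its Mfp2-/- values spanned those of the controls, and its exons overlap those of Serpinb6a on the other strand. Among p53 targets, Perp, which encodes a desmosomal membrane protein, was also too scarce, with 1, 7, 6 and 5 counts in control and 8, 8, 16 and 5 in Mfp2-/- retinas (ratio 2.03, interval 1.14 to 3.74, adjusted p without the filter 0.281).

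**Figure D4:**
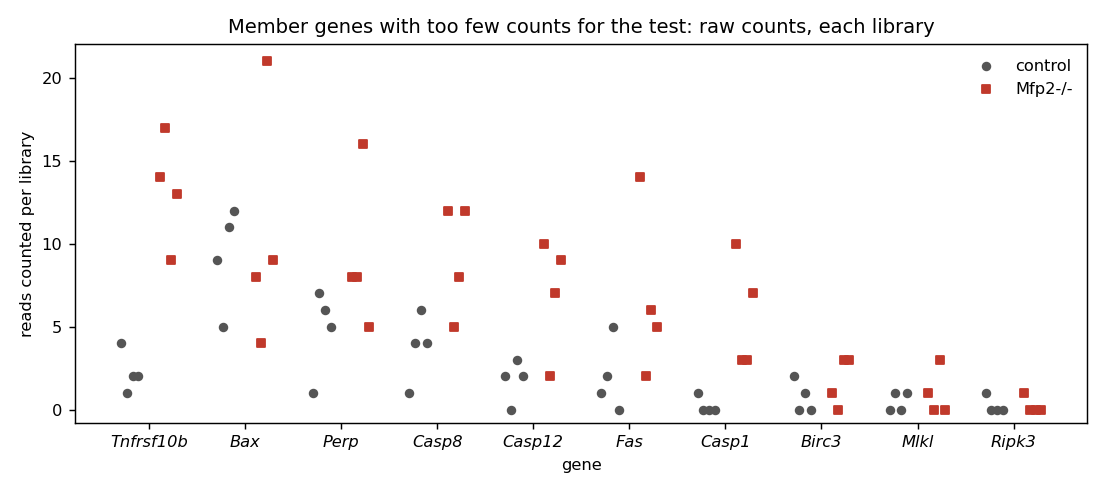
Reads counted for the 10 member genes below the filter (vertical axis, raw counts per library, not scaled), each point a mouse. Tnfrsf10b and Casp1 show more counts in every Mfp2-/- library than in any control, whereas Bax, Birc3, Mlkl and Ripk3 overlap.

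The summed level of 8 lens transcripts, mostly crystallins, was 1284, 678, 478 and 304 CPM in controls and 1882, 5791, 3368 and 322 CPM in Mfp2-/- retinas. Among upregulated members, Cdkn1a, Ccnd1, Bid and Phlda3 had their 2 highest values in Mfp2-/- libraries 2 and 3. In Mfp2-/- replicate 4, at the lens level of the controls, Ccnd1 was at 77.6 CPM and Bid at 5.15 CPM, each above all controls, as were Cdkn1a and Phlda3. Replicate 4 is 1 mouse, and the part of lens RNA in these values was not tested. Without libraries 2 and 3 together the log2 fold change of Ccnd1 was 1.76 (adjusted p = 3.2e-06), that of Mcl1 0.60 (0.0042), that of Gadd45b 1.54 (0.0072) and that of Zmat3 0.72 (0.0085). Bid (1.12, adjusted p = 0.093) and Phlda3 (0.92, adjusted p = 0.143) then did not pass.

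**Figure D5:**
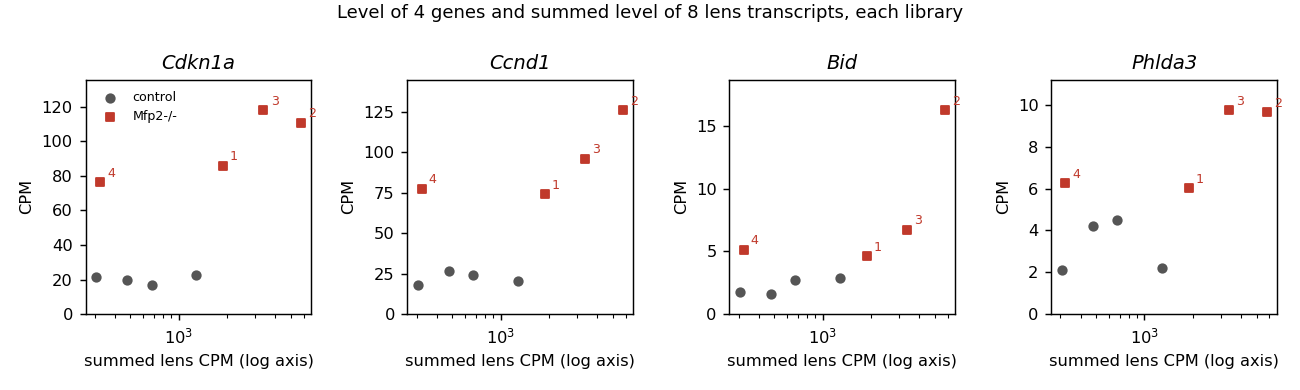
Level of Cdkn1a, Ccnd1, Bid and Phlda3 in CPM (vertical axes, from 0) against the summed CPM of 8 lens transcripts (horizontal axes, log scale), each point a library and Mfp2-/- libraries numbered by replicate. The highest points belong to Mfp2-/- libraries 2 and 3, and library 4 lies above all controls for each gene at a lens level of 322 CPM.

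Other genes of the same pathways were taken from lists written by pathway. Of 48 further p53 pathway genes, 30 were tested, with a median log2 fold change of -0.0011. Of these, 7 were upregulated (23.3%) and 3 downregulated (10%), against 13.8% and 13.2% of all tested genes. The 6 with the smallest adjusted p moved in both directions. Shisa5 (Scotin), a p53-induced protein of the endoplasmic reticulum, was at 17.6 to 26.8 CPM in control and at 46.3 to 83.3 CPM in Mfp2-/- animals (log2 fold change 1.53, adjusted p = 4.0e-04). Thbs1, which encodes the matrix protein thrombospondin 1, rose by 2.56 on the log2 scale (adjusted p = 5.8e-04), and the cyclins Ccnd2 (1.73, adjusted p = 7.7e-04) and Ccne1 (1.45, adjusted p = 0.0065) rose as well. Tigar, a p53 target that slows glycolysis, was at 31.7 to 48.1 CPM in control and at 14.3 to 26.9 CPM in Mfp2-/- animals (log2 fold change -1.05, adjusted p = 0.0041). Ppm1d, which encodes the phosphatase WIP1 that p53 induces and that switches p53 signalling off, was downregulated (log2 fold change -0.74, adjusted p = 0.0068), as was Mdm2. No call among these 6 genes was lost when any single library was left out.

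Of 35 further apoptosis genes, 27 were tested, with a median log2 fold change of 0.087. Of these, 8 were upregulated (29.6%) and 2 downregulated (7.41%), against 13.8% and 13.2% of all tested genes. Tnfrsf1a, which encodes the TNF receptor that can signal survival or death through RIPK1, was at 7.64, 8.14, 7.42 and 6.27 CPM in control and at 31.1, 34.0, 31.3 and 37.1 CPM in Mfp2-/- retinas. This was a tight and wide separation, with a log2 fold change of 2.18 ± 0.17 (SE, adjusted p = 5.3e-06). Hrk, a neuronal BH3-only gene, rose by 1.29 on the log2 scale (adjusted p = 0.013) and the death-associated genes Dap (1.26, adjusted p = 0.00855) and Dapk1 (0.58, adjusted p = 0.020) rose too. Dapk1 did not pass when control replicate 1 (0.0502) or 2 (0.0669) or Mfp2-/- replicate 3 (0.0588) was left out. Septin4, one product of which antagonizes XIAP, was downregulated (log2 fold change -0.65, adjusted p = 0.0083).

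Of 16 further necroptosis and pyroptosis genes, 8 were tested, with a median log2 fold change of 0.34. Of these, 1 was upregulated and 1 downregulated (12.5% each), close to the 13.8% and 13.2% of all tested genes. Tnfaip3, which encodes A20, the ubiquitin-editing enzyme that dampens NF-κB signalling and restrains RIPK1 and RIPK3, was at 44.8, 53.4, 55.5 and 46.3 CPM in control and at 6.72, 8.64, 9.08 and 3.31 CPM in Mfp2-/- retinas. No Mfp2-/- value came near a control, and the log2 fold change was -2.85 ± 0.25 (SE, adjusted p = 1.3e-05). Ninj1, which encodes the protein that ruptures the plasma membrane late in lytic death, was at 2.09 to 10.6 CPM in control and at 13.2 to 28.5 CPM in Mfp2-/- animals (log2 fold change 1.60, adjusted p = 0.012). Neither call was lost when any single library was left out.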

How the data were processed

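QuantSeq 3′ RNA sequencing libraries were analysed, made from the neural retinas of 4 control mice and 4 Mfp2-/- mice. The deposited values are raw read counts per gene symbol, which the authors made with FastQC 0.11.7, HISAT2, SAMtools 1.5 and HTSeq 2.7.14 on mm10 according to the submitters' processing notes. For the HISAT2 version, the annotation and the strand setting: not given in the sources used here. Molecular identifiers were not used, so copies of the same molecule could not be told apart. The exact intervals on summed counts treat every read as independent and leave out variation between mice. A table of the whole series and the reads themselves were not used here. Rows that name no gene stayed out of library sizes: outside genes lay 10.8 to 29.9% of all reads, ambiguous were 0.262 to 0.34%, not aligned 15.3 to 22.1% and not uniquely aligned 19.9 to 26.2%.

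In R 4.3.3, edgeR 4.0.16 (filterByExpr, TMM factors, quasi-likelihood test) compared Mfp2-/- with control retinas over 12516 genes with Benjamini-Hochberg adjustment, calling genes at 0.05, whereas the study used limma. CPM values carry the TMM factors. Ratios of members used counts with a pseudocount of 0.5 and an exact permutation test, and scarce members exact binomial intervals at 95%. The members and lists were chosen with earlier results of these data known. Named were all 45 members, those called with every value, Hsd17b4 and up to 6 called genes of each related list by adjusted p. Results for part of the related genes are not reported here. Tigar and Septin4 are listed under the older symbols 9630033F20Rik and Sept4. Coordinates are of GENCODE on GRCm38. The test was run on simulated counts first. Alternatives were other factors, other filters, DESeq2 1.42.0, limma-voom (limma 3.58.1), a robust fit, blocking by replicate number, and leaving out libraries. Leaving out Mfp2-/- libraries 2 and 3 together was added after the data were seen.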

Additional observations from a re-analysis of the deposited data

Results flagged for a closer look

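Among 70 groups of 4 values of the 35 tested members, 4 held a library whose gap to its nearest neighbour took up most of the group's range by Dixon's criterion at 95%, which chance alone meets in about 1 of 20 groups. Ccng1 was highest in control replicate 1, at 66.2 CPM. Sesn1 was highest in control replicate 2, the Mfp2+/- mouse, at 49.8 CPM. Gadd45a was lowest in Mfp2-/- replicate 1, at 13.8 CPM. Cflar was highest in control replicate 4, at 58.9 CPM. The 4 values came from 4 different libraries.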

How the results depend on the processing

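Cdkn1a, Ccnd1, Mcl1, Xiap and Zmat3 passed under all 19 alternatives and Gadd45b under all 18 in which it was tested, whereas Bbc3 passed in 17 of 19, Bid in 15 of 18, Phlda3 in 14 of 18, Sesn3 in 13 of 19, Sesn1 in 12 of 19 and Mdm2 in 10 of 19. With upper-quartile factors or total counts only, the median over all genes moved on the log2 scale from -0.0039 to 0.12 and the upregulated share of called genes from 51.2% to 64.2% or 65.2%. Then 1 member (Xiap) and 0 genes of the p53 list were downregulated, and Bok (0.085, 0.090), Casp2 (0.021, 0.025) and Cflar (0.0851, 0.0862) turned upward without a call, less than that shift. With RLE factors, DESeq2, limma-voom or a robust fit 2 genes of the caspase group were downregulated (Xiap and Birc2), as without the filter, where 1 of the p53 list was downregulated and 1 caspase (Casp1), 1 death receptor gene (Tnfrsf10b) and 3 further necroptosis and pyroptosis genes were upregulated. With at least 10 counts in every library, 4 further p53 pathway, 5 further apoptosis and 0 further necroptosis genes were upregulated and 0 of the last were downregulated. Limma-voom turned Aen to -0.0376.

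Between libraries with the same replicate number, the correlations of deviations were 0.080, -0.16, 0.25 and 0.21. They were not compared with those between different numbers, so they cannot decide whether the numbers pair the samples. With the replicate block 2845 genes were called instead of 3377, and 11 members, without Mdm2; 1 of the p53 list was downregulated, and of further apoptosis genes 5 were upregulated and 1 downregulated.

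Leaving out single libraries gave 1 to 3 downregulated members, 0 to 2 downregulated p53 genes, 1 to 2 downregulated caspase genes, 0 to 1 upregulated death receptor genes (Tnfrsf10b, once it passed the filter), 4 to 7 upregulated and 1 to 3 downregulated further apoptosis genes, 3 to 6 downregulated further p53 genes and 1 to 2 downregulated further necroptosis genes. The difference between the groups in the log2 ratio of Bax to Bcl2 (0.050 with all libraries) then ranged from -0.20 to 0.28. Uncalled genes changed sign: Aen ranged from -0.28 to 0.27, Apaf1 from -0.18 to 0.30, Bak1 from -0.0052 to 0.32, Bcl2 from -0.031 to 0.23, Bok from -0.16 to 0.14, Casp2 from -0.24 to 0.17, Ccng1 from -0.43 to 0.091, Cflar from -0.16 to 0.056 and Ripk1 from -0.21 to 0.44. Without Mfp2-/- libraries 2 and 3 together 11 members were called, 9 of them shared with the 12; 1 of the p53 list was downregulated, 1 caspase (Casp8, adjusted p = 0.046) and 1 death receptor gene were upregulated, and Aen (-0.29), Bak1 (-0.14), Bok (0.15), Ccng1 (0.26), Cflar (0.10) and Ei24 (-0.019) changed sign without a call. The cause was not tested beyond the fewer genes or samples each alternative holds. At this depth genes near 3 counts per library could not be compared.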
